A study of Mus musculus with 7 samples.

Results

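The genes followed here in mouse colon were 8 listed genes of fat tissue and lipid synthesis: Adipoq, Lep, Scd1, Pck1, Fabp4, Cfd, Lpl and Lipe. They were chosen by symbol, and every probe set that the platform annotation gives to 1 of these symbols was taken. Of the 8 symbols, 7 were found, with 11 probe sets among the 12422 probe sets of the array that are not controls. Cfd, which encodes adipsin, was not analysed here because no probe set is paired with it. Where a gene has several probe sets, the one with the highest mean log2 signal stands for the gene, which gave 8251 genes in all.

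Colon RNA came from female CD-1 outbred mice that were 10 to 12 weeks old at the start and received 6 enemas. The TNBS pools were from mice given TNBS in ethanol, a hapten (trinitrobenzene sulphonic acid) that binds colonic proteins and provokes an immune colitis: TNBS w6 (6 mice, 3 days after the enemas), TNBS w8 (4 mice, 2 weeks), TNBS w10 (5 mice, 4 weeks) and TNBS w12 (4 mice, 6 weeks). The controls were given saline enemas: Saline w6 (5 mice, 3 days, measured on 2 arrays) and Saline w10 (4 mice, of which 2 were killed at 2 weeks and 2 at 4 weeks). Each group was thus a single RNA pool, no group received ethanol alone, and TNBS w12 had no saline pool of its own age. The comparisons ask how the colon transcripts of fat and lipid genes stood after TNBS relative to saline, TNBS w6 against Saline w6 and the later TNBS pools against Saline w10.

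Adipocytes store fat as triglyceride. Lipoprotein lipase (Lpl) frees fatty acids from circulating lipoproteins, the carrier Fabp4 binds them inside the cell, stearoyl-CoA desaturase (Scd1) makes monounsaturated from saturated fatty acids, and cytosolic PEP carboxykinase (Pck1) supplies the glycerol backbone in fat. Hormone-sensitive lipase (Lipe) breaks the store down again. Adiponectin (Adipoq), leptin (Lep) and adipsin are secreted by adipocytes. In the gut wall fat lies mainly in the mesentery along the serosa. Scd1 and Pck1 are also made by epithelium, Lpl and Fabp4 by macrophages, and Fabp4 by endothelium too.

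The values are signal intensities scaled to a target of 150 on each array, and values under 50 were treated as 50, called the floor below. A gene was tested only if at least 1 pool reached 100. Of the 7 genes, 4 passed: Adipoq, Lep, Scd1 and Pck1. Fabp4, Lpl and Lipe did not and are given as values. Over the 4316 genes that passed, the log2 difference between both arrays of the Saline w6 pool had an SD of 0.29, which is the only measure of error on a single pool and holds no spread between mice. Array medians lay between 51.7 and 61.1, and the 3' to 5' signal ratio of beta-actin was 1.14 to 1.24 on the 3 arrays of week 6 and 0.798 to 0.818 on the 4 later arrays. All 10 genes of an absorptive colonocyte list that are on the array passed the filter, with Krt20 at 2823 to 5086 in TNBS pools and 2700 to 4098 on saline arrays.

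RefSeq promoters on GRCm38.p6 were at hand for 3 of the 4 genes that passed the filter, and the 150 bases before the start site are shown for these, since their signals took different courses and the upstream letters are what a reader would compare. None was given for Scd1, Fabp4 or Lpl. Capitals mark 4 searched motifs on either strand: TTGCGCAA (a C/EBP box, the site of a factor that drives adipocyte genes), TTACGTCA (a cAMP response element), CCAAT and TATAA. TTGCGCAA reads the same on both strands, and TATAA can overlap its own reverse match, as it does in Lep.
Adipoq, chr16:23146386-23146535, plus strand: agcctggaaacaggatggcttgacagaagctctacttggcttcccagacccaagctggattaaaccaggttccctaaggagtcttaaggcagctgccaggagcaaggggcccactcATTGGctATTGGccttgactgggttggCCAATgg
Lep, chr6:29060071-29060220, plus strand: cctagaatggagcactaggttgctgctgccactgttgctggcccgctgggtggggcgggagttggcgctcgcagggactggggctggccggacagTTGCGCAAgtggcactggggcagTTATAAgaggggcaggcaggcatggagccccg
Pck1, chr2:173152923-173153072, plus strand: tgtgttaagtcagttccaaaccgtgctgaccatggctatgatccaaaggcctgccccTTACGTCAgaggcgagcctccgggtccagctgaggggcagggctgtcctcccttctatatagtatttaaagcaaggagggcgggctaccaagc

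The Lep window holds TTGCGCAA from 55 to 48 bases before the start, a match found in 0.164% of 32851 RefSeq mouse promoters over 250 bases upstream. The Pck1 window holds TTACGTCA from 93 to 86 bases before the start, as do 0.448% of promoters somewhere in 250 bases. Adipoq holds CCAAT 3 times, a motif present in 33.8% of promoters, and Lep holds TATAA, present in 22.8%. No motif of the 4 was found in 250 bases before either of the 2 Lipe starts. These are matches of letters and not measured binding sites, and their part in the signals was not tested.

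Adiponectin read low throughout. Adipoq had 98.5, 143, 130.4 and 23.9 in TNBS w6, w8, w10 and w12, against 45.3 and 58.9 on the Saline w6 arrays and 134.5 in Saline w10. TNBS and saline values overlapped, and the lowest signal was that of TNBS w12. TNBS w6 was 1.82-fold higher than Saline w6, a lower bound since 1 saline array lay under the floor. TNBS w8 and w10 differed from Saline w10 by log2 0.09 and -0.04, and TNBS w12 was at least 2.69-fold lower.

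The saline pools themselves differed as much. Saline w10 was at least 2.48-fold higher than Saline w6 in Adipoq, a difference of log2 1.31 without any TNBS. Of the 4316 genes, 0.857% were at least 2-fold higher in Saline w10 than in Saline w6. Set against Saline w10, TNBS w6 had a log2 difference of -0.45 in place of 0.86, so the direction at week 6 depended on which saline pool was used. The sign at week 10 also turned with the scaling, at 0.09 with equal array medians and 0.01 with quantile normalization. With a floor of 25 the difference at week 12 was -2.43, and with a floor of 100 it was -0.43.

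The Lep probe set with the higher signal read lower in every TNBS pool than on every saline array as deposited. Lep had 244.9, 295.7, 186.3 and 165.5 in TNBS w6, w8, w10 and w12, against 304.2 and 362.0 on the Saline w6 arrays and 341.3 in Saline w10. The groups did not overlap as deposited or after quantile normalization, with TNBS w8 only just under the lowest saline array. With equal array medians they overlapped, at 169 to 326 in TNBS pools and 291 to 342 on saline arrays, and the week 8 difference was log2 -0.03. Of the 4316 genes, 6.12% had all 4 TNBS arrays below all 3 saline arrays as deposited, 5.68% after quantile normalization and 2.83% with equal array medians. TNBS w6 was 1.36-fold, TNBS w8 1.15-fold, TNBS w10 1.83-fold and TNBS w12 2.06-fold lower than the matched saline pool, and the saline pools differed by log2 0.04. Of the 4316 genes, 15.3% were lower in all 4 matched comparisons, as Lep and Pck1 were, and 11.6% higher.

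The order of the pools in Lep, high to low, was Saline w10, Saline w6, TNBS w8, TNBS w6, TNBS w10 and TNBS w12. Only the gap between TNBS w6 and TNBS w10, log2 0.39, was larger than the SD of 0.29 between the repeated arrays. The other Lep probe set lay between 12.7 and 17.1 in the TNBS pools and between 16.3 and 20.2 on the saline arrays, under the floor on all 7, so the Lep signal rests on 1 of 2 probe sets, and which of them reads leptin mRNA was not settled here. At week 12 the difference was -1.04 on the used probe set and -0.52 as the mean of both.

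Scd1, which places the double bond in newly made fatty acids, was higher in the first 3 TNBS pools. It had 741.3, 1223.6, 939.8 and 442.8 in TNBS w6, w8, w10 and w12, against 413.0 and 366.6 on the Saline w6 arrays and 485.9 in Saline w10. TNBS w6, w8 and w10 lay above every saline array, while TNBS w12 lay among the saline values. Of the 4316 genes, 5.05% had TNBS w6, w8 and w10 all above TNBS w12 and both saline pools. TNBS w6 was 1.91-fold, TNBS w8 2.52-fold and TNBS w10 1.93-fold higher than the matched saline pool, and TNBS w12 differed from it by log2 -0.13.

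In the order of Scd1 signal, TNBS w8, TNBS w10, TNBS w6 and Saline w10 were each apart by more than the SD between repeated arrays, with gaps of log2 0.38, 0.34 and 0.61. Saline w10, TNBS w12 and Saline w6 followed each other by less. The second Scd1 probe set also peaked in TNBS w8. It had 352.5, 835.6, 470.1 and 271.7 in TNBS w6, w8, w10 and w12, against 179.2 and 279.6 on the Saline w6 arrays and 408.8 in Saline w10. On this probe set TNBS w6 was 1.57-fold and TNBS w8 2.04-fold higher than the matched saline pool, but TNBS w6 lay below Saline w10. TNBS w10 was only 1.15-fold higher, and TNBS w12 was lower by log2 -0.59. Both Saline w6 arrays differed by log2 -0.64. The third probe set lay under the floor on all arrays, at 4.6 to 30.2 in TNBS pools and 9.3 to 22.4 on saline arrays.

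Pck1 was lower in every TNBS pool than on every saline array as deposited, most so at week 6. It had 114.7, 133.1, 166.4 and 188.2 in TNBS w6, w8, w10 and w12, against 260.7 and 262.7 on the Saline w6 arrays and 192.7 in Saline w10. The groups did not overlap as deposited or after quantile normalization. Of the 4316 genes, 6.12% and 5.68% had that order under these 2 scalings. TNBS w12 and Saline w10 were apart by only log2 -0.03. With equal array medians that difference was 0.03 and the groups overlapped, at 107 to 192 in TNBS pools and 188 to 249 on saline arrays. TNBS w6 was 2.28-fold, TNBS w8 1.45-fold and TNBS w10 1.16-fold lower than the matched saline pool. Of the 4316 genes, 0.996% were at least 2-fold lower at week 6. The repeated Saline w6 arrays gave log2 -0.01 between them for Pck1, and Saline w10 was 1.36-fold lower than Saline w6. Against Saline w10, TNBS w6 had a log2 difference of -0.75 in place of -1.19.

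**Figure D1:**
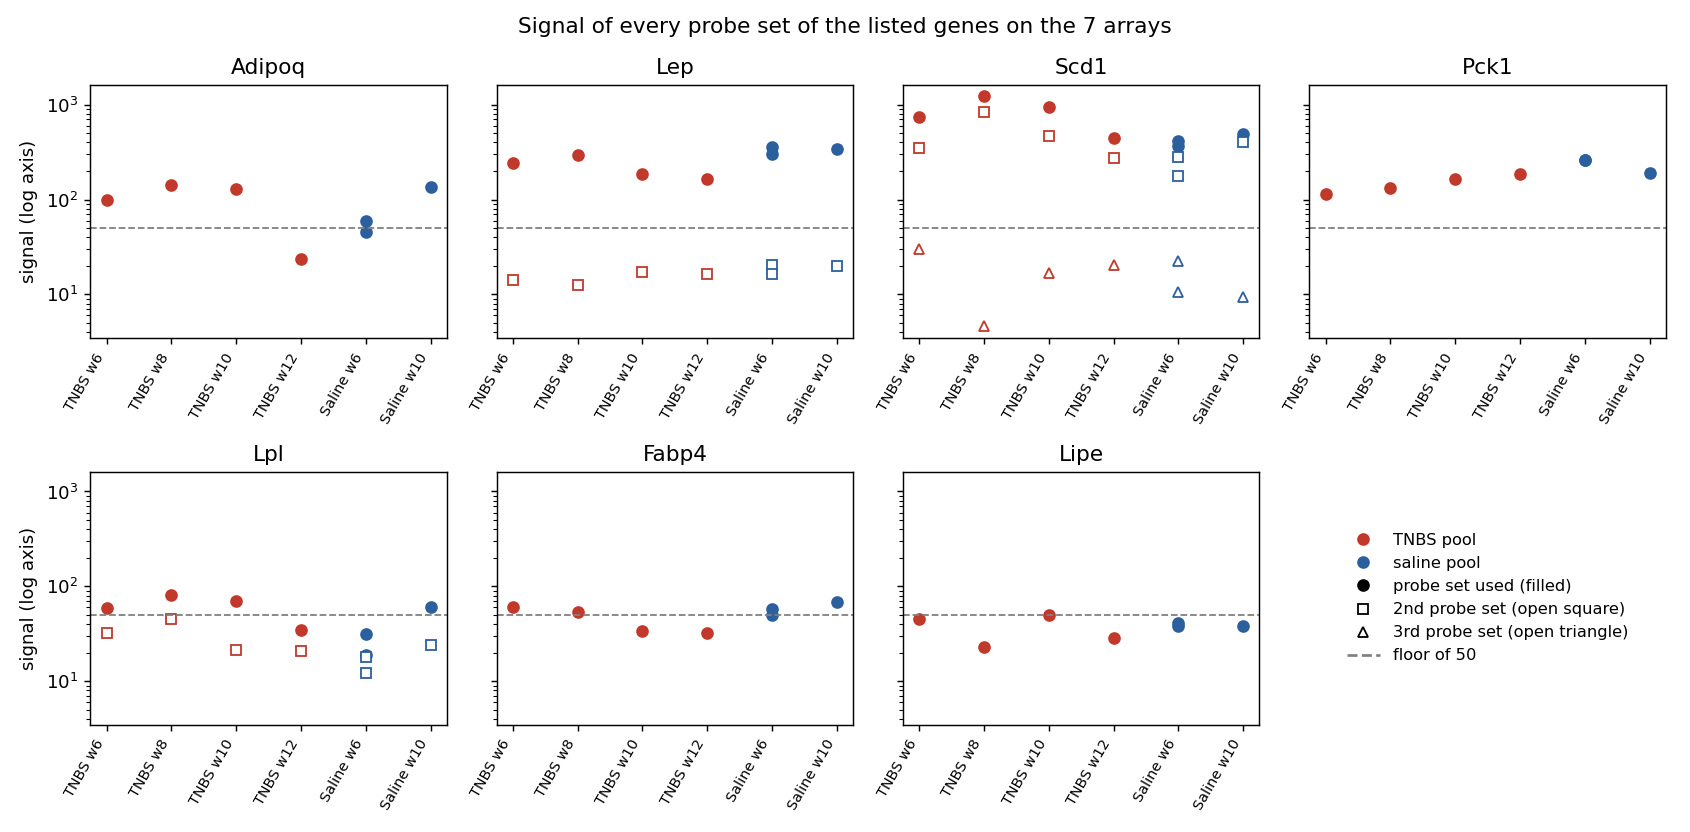
Signal of the 11 probe sets on the 7 arrays, on a log axis, with TNBS pools in red and saline pools in blue, filled circles for the probe set used, open symbols for further probe sets and a dashed line at the floor of 50. Scd1 is highest in TNBS w8 at 1223.6, Pck1 lies at 114.7 to 188.2 in TNBS pools and 192.7 to 262.7 on saline arrays, and Fabp4, Lpl and Lipe stay under 100.

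The genes that take up and carry fatty acids were hardly above the floor. Lpl had 59.5, 81.8, 70.1 and 34.7 in TNBS w6, w8, w10 and w12, against 18.9 and 31.8 on the Saline w6 arrays and 59.9 in Saline w10. TNBS w6, w8 and w10 were above both Saline w6 arrays, but Saline w10 was slightly above TNBS w6, so the groups overlapped. TNBS w8 was 1.37-fold higher than Saline w10, and TNBS w6 at least 1.19-fold higher than Saline w6. The second Lpl probe set was under the floor on all arrays, at 21.0 to 45.0 in TNBS pools and 12.2 to 24.3 on saline arrays, and was also highest in TNBS w8.

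Fabp4, among the most abundant mRNAs of fat cells, had 60.7, 53.9, 33.7 and 32.2 in TNBS w6, w8, w10 and w12, against 57.9 and 50.2 on the Saline w6 arrays and 67.6 in Saline w10. TNBS w10 and w12 lay below the floor and below all saline arrays. TNBS w10 and w12 were at least 1.35-fold lower than Saline w10, a bound set by the floor in both. Lipe lay under the floor on all 7 arrays, at 23.1 to 49.4 in TNBS pools and 38.0 to 41.1 on saline arrays, and has no fold.

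**Figure D2:**
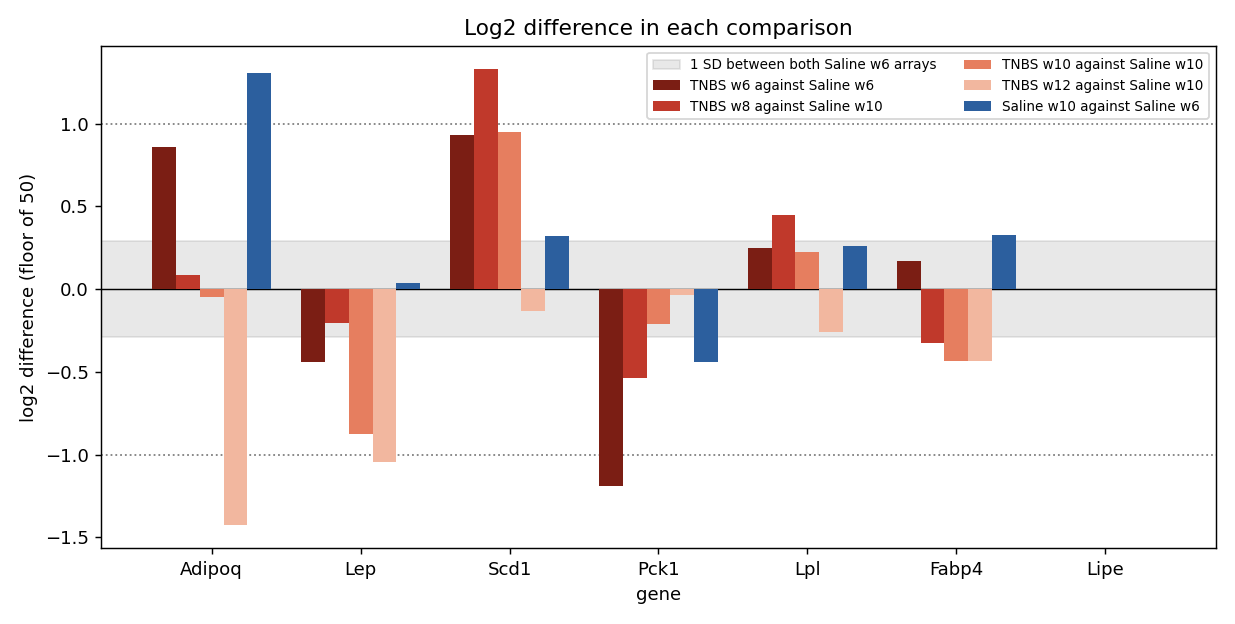
Log2 differences of the 7 genes in the 4 TNBS comparisons (reds) and between the saline pools (blue), after the floor of 50. The grey band is 1 SD (0.29) between both Saline w6 arrays and dotted lines mark a 2-fold difference. Scd1 reaches 1.33 at week 8, Pck1 -1.19 at week 6 and Adipoq -1.43 at week 12, while Adipoq also differs by 1.31 between the saline pools.

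Over all 4 TNBS pools no gene of the set passed the test. In limma's model of 4 TNBS against 2 saline pools, which also held a term for later against week 6, Scd1 had a log2 difference of 0.80 ± 0.37 (SE, adjusted p = 0.886), Pck1 of -0.63 ± 0.26 (adjusted p = 0.886), Lep of -0.60 ± 0.25 (adjusted p = 0.886) and Adipoq of 0.07 ± 0.48 (adjusted p = 0.997). The unadjusted limma p was 0.0601 for Scd1, 0.0375 for Pck1 and 0.0442 for Lep. By this model 0 of the 4316 genes were called (0% in each direction), and 5.12% had an unadjusted p under 0.05. Mean log2 signals in the TNBS and saline pools were 9.61 and 8.76 for Scd1, 7.21 and 7.81 for Pck1, 7.76 and 8.39 for Lep, and 6.61 and 6.42 for Adipoq. Without TNBS w12 the log2 difference of Adipoq was 0.38, uncalled. Without TNBS w6 the term compares the later TNBS pools with Saline w10 alone, and Adipoq was at -0.46 and Pck1 at -0.26. Without Saline w10 it compares TNBS w6 with Saline w6 alone, and Adipoq was at 0.86 and Pck1 at -1.19. With the mean of probe sets Scd1 was at 0.40 and Lep at -0.30, also uncalled.

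The later pools against those of week 6, the other term of the model, gave 0.52 ± 0.48 for Adipoq (SE, limma adjusted p = 0.717), 0.19 ± 0.37 for Scd1 (0.871), 0.12 ± 0.26 for Pck1 (0.886) and -0.12 ± 0.25 for Lep (0.879). Single pools decided these values. Without TNBS w6 the term compares Saline w10 with Saline w6 alone, at 1.31 for Adipoq, -0.44 for Pck1 and 0.04 for Lep. Without Saline w10 it compares the later TNBS pools with TNBS w6 alone, at -0.01 for Adipoq and 0.49 for Pck1. That of Scd1 was 0.02 without TNBS w8 and 0.44 without TNBS w12, both uncalled. The actin ratio differed between the same arrays, and its part in these values was not tested. Again 0 of the 4316 genes were called, with 11.5% at an unadjusted p under 0.05. Whether the TNBS difference at week 6 differed from the later one was tested as an interaction (later minus week 6). It was 0.93 ± 0.46 for Pck1, -1.32 ± 1.00 for Adipoq, -0.27 ± 0.59 for Lep and -0.21 ± 0.89 for Scd1 (SE), with a limma adjusted p of 0.999 for each, and 0 of the 4316 genes were called, with 1.85% at an unadjusted p under 0.05. Without TNBS w12 the interaction was 0.21 for Scd1 and -0.84 for Adipoq, and without TNBS w8 it was -0.52 for both Scd1 and Lep. In bulk tissue fewer cells of a type and less RNA per cell cannot be told apart, for these genes and for those below.

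As a set, the 7 genes had a median log2 difference of 0.17 in TNBS w6 against Saline w6, 0.00 in TNBS w8, -0.04 in TNBS w10 and -0.26 in TNBS w12 against Saline w10. The saline pools differed by 0.26. The median of all 8251 genes was 0 in each, where floored genes differ by 0. That of the 4316 tested genes lay between -0.07 and 0.01. At week 6, 4 of the 7 genes lay above 0 and 2 below, and at week 12 none lay above and 6 below. Of these 6, Adipoq, Fabp4 and Lpl were at the floor in TNBS w12. Lpl (-0.26), Scd1 (-0.13) and Pck1 (-0.03) differed by less than the SD of 0.29 between repeated arrays. The share of all genes in each direction was not measured. At least 2-fold differences from saline were Pck1 at week 6 (lower), Scd1 at week 8 (higher, with 1.53% of the 4316 genes), and Adipoq and Lep at week 12 (lower, with 0.88%), and none at week 10. For the other directions the shares of the 4316 genes were 2.55% higher at week 6, 1.76% lower at week 8, 0.834% higher and 0.649% lower at week 10, 0.718% higher at week 12 and 0.95% lower between the saline pools. The later 3 comparisons share the Saline w10 pool.

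Further genes of mature adipocytes were mixed in direction at weeks 6, 8 and 10 and more often lower at week 12. Of 26 listed symbols, 20 were on the array, 10 passed the filter and 6 lay under the floor on all 7 arrays. Among those under the filter were Cidec, which coats fat droplets (12.9 at most), Aqp7, the glycerol channel of fat cells (29.9), Apoc1 (39.9), Retn, the adipokine resistin (46.3), and Slc2a4, the insulin-dependent glucose transporter (68.5). The summed signal of the 20 genes was 2406 to 3232 in the TNBS pools and 2570 to 2743 on the saline arrays. Pnpla2, Cebpa and Plin2, with the highest signals, weigh most in this sum. The list's median log2 difference was 0 at weeks 6, 8 and 10 and -0.01 at week 12. Floored genes, which differ by 0, hold this median near 0. At week 6, 8 genes lay above 0 and 4 below, with 7 and 7 at week 8 and 7 and 6 at week 10. At week 12, 3 lay above and 10 below. Lists of other cells also leaned lower at week 12, with 0 above and 8 below for smooth muscle. The counts were 1 and 9 for the colonocyte list and 1 and 9 for macrophage genes. Preadipocyte and stroma genes, at 6 above and 3 below, and B cell genes, at 3 and 2, did not. The share of all genes in each direction was not measured. In limma's pooled test 0 of the 10 tested adipocyte genes passed. Fabp4, Lipe, Cidec and Retn lay at or near the floor, while Lep, Adipoq and the adipocyte gene Car3 reached 362.0, 143 and 150.9 at most. Whether any of these signals comes from attached fat was not tested. The 4 measured genes are therefore described here by their names and not as a measure of attached fat.

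The adipocyte genes with the highest signals are also made outside fat. Pnpla2, the triglyceride lipase that starts fat breakdown, had 410.3, 478.7, 679.1 and 613.0 in TNBS w6, w8, w10 and w12, against 629.3 and 649.5 on the Saline w6 arrays and 625.4 in Saline w10. Its week 6 difference was log2 -0.64. Plin2, a coat protein of lipid droplets in many cells, had 591.4, 313.8, 765.4 and 802.3 in the same TNBS pools, against 618.5 and 521.1 on the Saline w6 arrays and 386.2 in Saline w10, and was 2.08-fold higher at week 12. Cebpa, a transcription factor of adipocytes that hepatocytes and myeloid cells also make, was 1.81-fold higher at week 10. Gpd1, which makes glycerol phosphate, read 167.1 in TNBS w6 against 128.5 and 79.2 on the Saline w6 arrays, a difference of log2 0.73 with saline arrays that lie apart, and differed by -0.37 at week 12.

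Of the weaker ones, Aoc3, an amine oxidase of adipocytes and smooth muscle, read 59.7 in TNBS w12 against 131.4 in Saline w10, a difference of log2 -1.14. Its Saline w6 arrays read 100.3 and 76.3. Sncg, a synuclein of adipocytes and neurons, was 2.39-fold lower at week 8, at 79.3 against 189.9, with 128.4 and 123.7 on the Saline w6 arrays. Rbp4, the retinol carrier, was 2.01-fold higher at week 8, at 162.0 against 80.4, but its Saline w6 arrays read 131.9 and 127.2. Saline w10 differed from Saline w6 by log2 0.59 for Aoc3 and Sncg and by -0.69 for Rbp4. Pparg, the master regulator of adipocytes that colonocytes also express, was named after its values were seen and had 81.9 to 105.3 in TNBS pools and 74.9 to 96.4 on saline arrays.

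**Figure D3:**
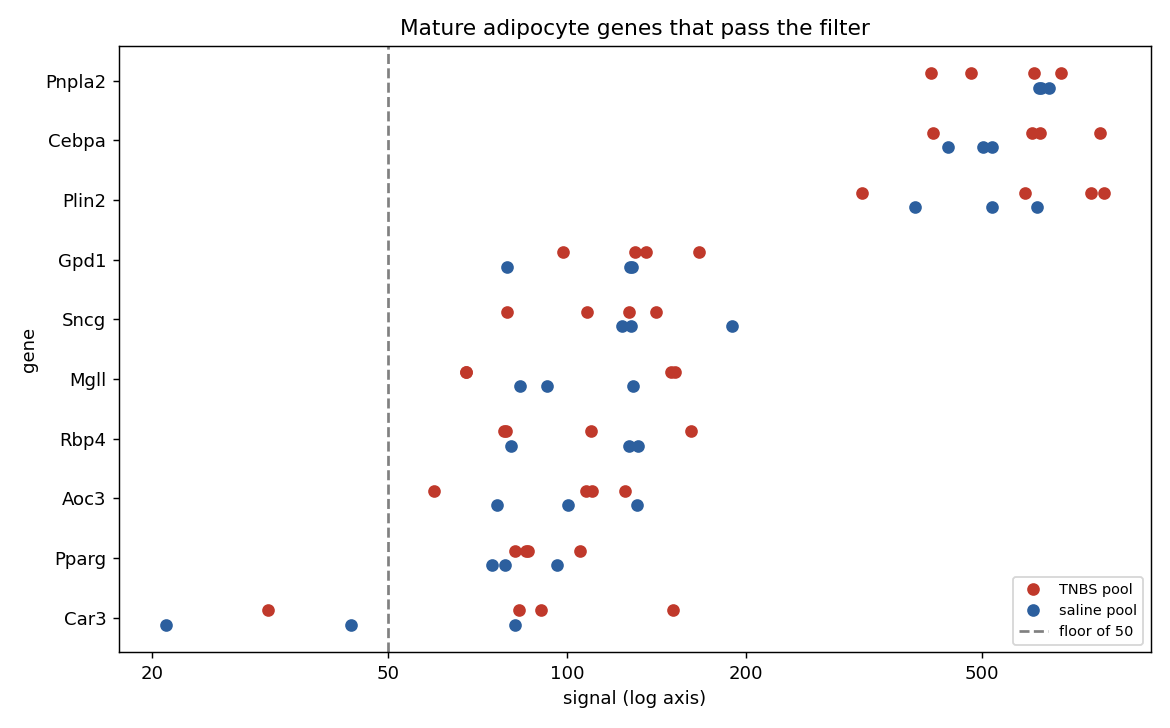
Signals of the 10 mature adipocyte genes that passed the filter, on a log axis, with TNBS pools in red above saline arrays in blue on each line and the floor of 50 dashed. The colours overlap for every gene, and Pparg stays between 74.9 and 105.3.

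Enzymes that work beside Scd1 had no common course. Of 24 symbols for fatty acid and sterol synthesis, 14 were on the array and 12 passed, with list medians of log2 -0.05, 0.01, -0.03 and -0.02 at weeks 6, 8, 10 and 12. None was called by limma or reached a 2-fold difference in a matched comparison. Scd2, the closest relative of Scd1 in the list, had 3260.7, 2884.6, 2094.2 and 2344.4 in TNBS w6, w8, w10 and w12, against 2386.2 and 2245.8 on the Saline w6 arrays and 2145.5 in Saline w10. It differed by log2 0.49 and 0.43 at weeks 6 and 8 and by -0.03 at week 10, where Scd1 was at 0.95 on the used probe set, at 0.20 on the second and at 0.38 as the mean of its probe sets. Acly, which makes cytosolic acetyl-CoA, stood out only at week 12 (log2 0.84). Fdps, of the sterol pathway, and Elovl5, a fatty acid elongase, lay between log2 -0.24 and 0.38 in all comparisons. Among the rest, named after their values were seen, Me1, the malic enzyme that supplies NADPH, had the largest difference of the list at week 8, at 252.8 against 139.5 in Saline w10 (log2 0.86). It differed by -0.16, -0.03 and -0.09 at weeks 6, 10 and 12. Fasn, the fatty acid synthase, differed by 0.21, 0.17, -0.50 and -0.09 at weeks 6, 8, 10 and 12.

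Of the gluconeogenic genes beside Pck1, 6 of 8 were on the array and 3 passed. G6pc, the last enzyme of glucose release, read 69.0, 64.5, 35.6 and 53.1 in TNBS w6, w8, w10 and w12, against 104.8 and 109.0 on the Saline w6 arrays and 68.9 in Saline w10. It was lower at week 6, by log2 -0.63, and Saline w10 differed from Saline w6 by the same -0.63. G6pc and Pck2 passed the filter through Saline w6 alone. Pck2, the mitochondrial form, was at -0.52 at week 6 and 0.33 at week 12, and differed by -1.05 between Saline w10 and Saline w6. Tat, an amino acid transaminase, was at 0.06 at week 6 and 0.55 at week 10.

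Receptors for the 2 hormones were listed as well. The leptin receptor gene Lepr reached 17.6 at most, Adipor1 88.1 and Insr, the insulin receptor, 29.9, and none of these passed. Adipor2, an adiponectin receptor, had 645.2, 730.7, 635.2 and 804.7 in TNBS w6, w8, w10 and w12, against 576.8 and 397.2 on the Saline w6 arrays and 516.7 in Saline w10, so all TNBS pools lay above all saline arrays. Of the 4316 genes, 4.94% had that order. Its pooled difference was log2 0.46 ± 0.17 (SE, limma adjusted p = 0.886). Irs2, an adaptor of insulin signalling, passed through TNBS w12 alone, at 102.9 against 15.3 in Saline w10, and Igf1r lay within log2 0.26 of saline throughout. None of the 6 brown fat genes passed the filter, and Ucp1 reached 23.0 at most. Stromal and preadipocyte genes had list medians between 0.02 and 0.11 in the 4 comparisons. Of these Cebpd, an early adipogenic factor, was at log2 0.94 at week 8, with Saline w10 itself at -1.01 from Saline w6, Dcn at 0.52 at week 6, Klf4 at -0.44 at week 10, and Pdgfra within 0.21.

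Lists of other cell types are set beside these values, and no association between them was measured. The colonocyte list had 8 of 10 genes below 0 at week 6 (median log2 -0.51), where Pck1 was lowest, and a summed signal of 10216 in TNBS w6 against 14013 and 13053 on the Saline w6 arrays. At week 8 the colonocyte median was 0.04 and its sum 21300 against 19479 in Saline w10, while Pck1 was at log2 -0.53. At week 10, 10 of 10 colonocyte genes lay below 0 (median -0.26), with Pck1 at -0.21. At week 12, 9 of 10 did (median -0.25), with Pck1 at -0.03. Between Saline w10 and Saline w6 the colonocyte median was 0.39. The part of the colonocyte genes in the Pck1 signal was not tested. Macrophage genes had a median of 0.85 at week 6, with 11 of 14 above 0 and a sum of 6906 against 3827 and 3217, and of 0.00 at week 8. Their sum ran from 3682 to 6906 in TNBS pools and 3217 to 3827 on saline arrays, with the defining Adgre1 at 25.4 at most. Fabp4, which macrophages share, differed by log2 0.17 at week 6. Lpl, which they share too, was higher by at least 0.25, and by 1.08 with a floor of 25, since both Saline w6 arrays lay under 50.

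Genes of the exocrine pancreas had medians of log2 2.40, 2.70, -0.18 and -0.85 at weeks 6, 8, 10 and 12. Their summed signal was 6302, 8753, 2637 and 2641 in TNBS w6, w8, w10 and w12, against 2842 and 2355 on the Saline w6 arrays and 2277 in Saline w10. Cela1 alone gave 1633.1 of the summed signal in TNBS w10 and 2208.6 in TNBS w12. At week 10 Scd1 was at log2 0.95 on the used probe set, 0.20 on the second and 0.38 as the mean of probe sets. The part of the pancreatic genes in the Scd1 signal was not tested at any week. Of 4 mesothelial genes of the serosa on the array, Msln, Wt1 and Upk3b reached 13.5, 27.0 and 72.2. The fourth, Krt19, a keratin that colon epithelium also makes, read 3821 to 5692 in TNBS pools and 4508 to 5459 on saline arrays. No skeletal muscle gene passed the filter. Of 9 endothelial genes on the array only Eng passed, at 180.8 to 350.0 in TNBS pools and 278.1 to 285.5 on saline arrays. Smooth muscle genes had medians between -0.36 and 0.11, and B cell genes of 0.84 at week 6 and 0.29 at week 8.

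Likeness to other genes was measured as Pearson's r over the 6 pools among 299 candidate genes, and is given as a description of 6 points that share their arrays. The mean profile of the 4 genes that passed was most like Pcp4l1 (r = 0.94), Hba-a1, a haemoglobin chain of red cells (0.93), Ifit2, an interferon-induced protein (0.90), Rbm39 (0.88) and Mgll, which cleaves monoglycerides (0.88). St3gal4, Car3, Pdia4, Selenos and Emp1 followed at 0.83 to 0.87. Car3, a carbonic anhydrase abundant in fat and muscle, had 82.9, 150.9, 90.5 and 31.4 in TNBS w6, w8, w10 and w12, against 21.1 and 43.2 on the Saline w6 arrays and 81.8 in Saline w10. The 4 genes did not share 1 profile, with r between -0.76 (Scd1 and Pck1) and 0.75 (Adipoq and Scd1).

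Taken one by one, a listing added after the values were seen, Scd1 was most like Ceacam10 (r = 0.98), Reg3b (0.97) and Reg3g (0.95), lectins of the epithelial defence in the case of the Reg genes. Reg3b had 2095, 4017, 4589 and 201 in TNBS w6, w8, w10 and w12. Saline w6 (both arrays averaged) had 166 and Saline w10 had 382. Reg3b was thus high in the same 3 pools as the used Scd1 probe set. Adipoq was most like Ifit2 (0.97), which had 141, 371, 213 and the floor of 50 in the TNBS pools against the floor in Saline w6 and 186 in Saline w10. Lep was most like Jund, a transcription factor subunit (0.93), and Itln1, a lectin of goblet and Paneth cells (0.92). Pck1 was most like Eif2ak1, a haem-regulated kinase (0.92), followed by Rangrf (0.91) and Slc20a1, a phosphate transporter (0.89).

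**Figure D4:**
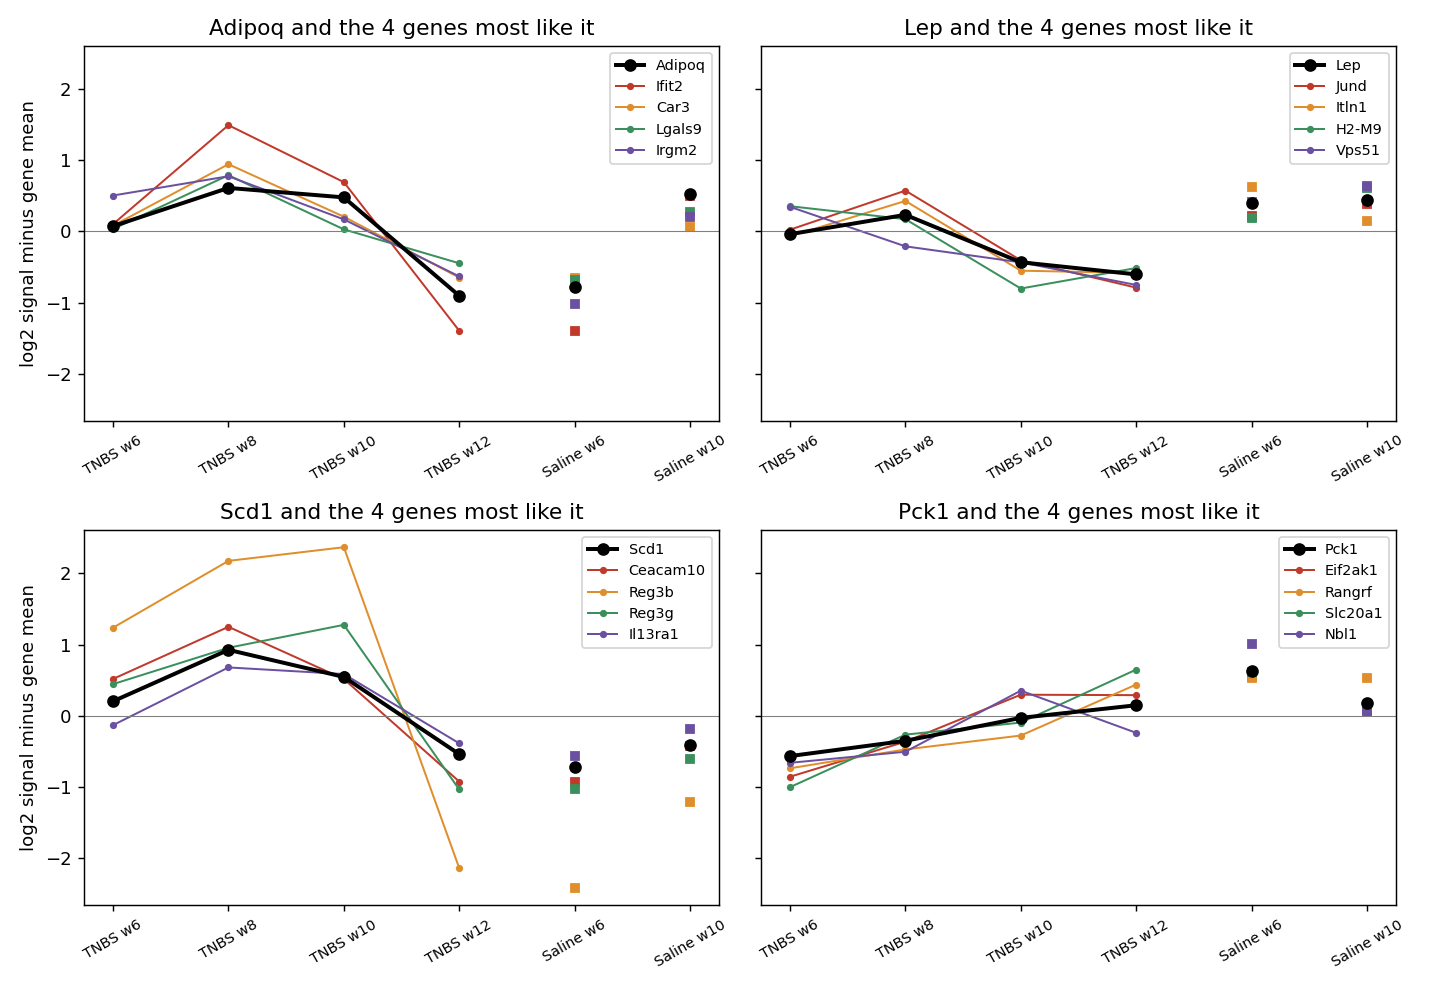
Log2 signal minus each gene's mean over the 6 pools for Adipoq, Lep, Scd1 and Pck1 (black) and the 4 genes most like each (colours), with the TNBS pools joined by lines and the saline pools as single points. Scd1 and Reg3b are high in TNBS w6, w8 and w10 and near the saline pools in TNBS w12, and Pck1 is lowest in TNBS w6.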

How the data were processed

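Colon RNA of 6 pools was measured on 7 Affymetrix arrays. The deposited values are signal intensity on a linear scale, which the authors made with Microarray Suite 5.0 and scaled to a target of 150, per the labels. Detection calls were not used, and the values themselves carry no genome coordinates. Of 12488 probe sets, 66 controls were left out, and 10833 had 1 symbol in the platform annotation of 2016, 396 several and 1193 none. RefSeq entries for 10817 of them (GRCm38.p6) gave current symbols, and RefSeq's promoters of that build gave the printed sequences.

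Values under 50 were set to 50, log2 was taken and both Saline w6 arrays were averaged as 1 pool, since they repeat it. Genes with 100 or more in the highest pool were tested in R 4.3.3 with limma 3.58.1 (trend, two-sided, Benjamini-Hochberg over 4316 genes, threshold 0.05), with 3 residual degrees of freedom, or 2 for the interaction. The model treats TNBS pools of different times as replicates; its p-values therefore reflect how pools vary and hold nothing on how mice vary. Matched comparisons have 1 pool a side and no test.

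The 8 genes and 14 lists were chosen with earlier results of these data known. Genes are named by a rule, with exceptions. The rule takes all of the set, the 4 with the highest mean signal in each list and adipocyte genes 2-fold different. It adds the 10 most like the set's mean profile (SD of at least 0.5, above the floor in at least 4 pools). Symbols of the Rik, Gm or EST kind were not named. Exceptions are genes under the filter, such as Cidec, Lepr and Adgre1, and those said to be named or added after their values were seen. Alternatives covered the floor, log2(value + 50), probe sets, scaling, filter, trend, covariate, saline pool and left-out arrays or pools.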

Additional observations from a re-analysis of the deposited data

How the results depend on the processing

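No paired analysis was possible because each group is 1 pool and no groups share replicate numbers that pair mice. The 4 tested genes stayed uncalled by limma in all 3 terms under every alternative run, with the lowest adjusted p at 0.22 for Scd1 without TNBS w12. Over all genes the calls by limma were 0, but without the filter they were 17 in the pooled TNBS term, 23 in the term of later pools against week 6 and 488 in the interaction, and the interaction called 187 with a floor of 100; the cause was not tested. Leaving out arrays or pools gave 0 to 2 calls in the pooled term, 2 without TNBS w12, and 0 to 4 in the term of later pools, 4 without TNBS w8, and 0 in the interaction. The set's median at week 12 was -0.79 with a floor of 25, against -0.26, since 4 of its genes lay below 50 there, and at week 6 it was -0.16 against Saline w10, against 0.17. Leaving out either Saline w6 array put the week 6 median at 0.068 to 0.25 and the median between the saline pools at 0.22 to 0.26; the comparisons with Saline w10 use neither array. Of 308 values of matched differences of single genes under the alternatives, 41 moved by more than the SD between repeated arrays, and of 184 values of model terms 22 did, with 13 of the model terms and 9 of the matched differences turning sign. Differences among Adipoq, Fabp4, Lpl and Lipe are limited by signal, and the number of arrays limits the precision of the rest.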
